A study of Mus musculus with 111 samples.

Results

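The fibrillar collagen chains were followed in the lungs of mice given bleomycin or saline. They are the products of 9 genes, Col1a1, Col1a2, Col3a1, Col5a1, Col5a2, Col5a3, Col11a1, Col24a1 and Col27a1, and were chosen by their family and not by their values. All probesets annotated to 1 of these genes alone were used, 19 of the 27871 probesets that stand for 1 gene, so that 9 of 15707 genes are described. Each of the 7 days had a bleomycin group, male C57BL6/J mice given 1 intratracheal spray of bleomycin (2 U/kg in 50 µl), and a saline group given the same volume of saline. The lungs were taken on day 1, day 2, and then weekly on days 7, 14, 21, 28 or 35. There were 8 mice in each group, and 7 in saline day 14, from which the authors had removed 1 array after a principal component analysis. The mice were 7 to 9 weeks old at purchase and carried no transgene. The whole of both lungs was homogenized, so a value is an average over every cell type present, and a change in the number of collagen-producing cells and a change of the RNA in each cell cannot be told apart.

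Fibrillar collagens are the rope-like proteins that give connective tissue its tensile strength. Their chains wind into triple helices in the endoplasmic reticulum, are secreted as procollagens, and assemble into striated fibrils once their end pieces are cut off. Type I collagen, built from the products of Col1a1 and Col1a2, and type III collagen, built from that of Col3a1, make up most of the fibrils of the lung. Type V collagen, with chains from Col5a1, Col5a2 and Col5a3, is a minor fibril component that starts fibril assembly and limits fibril width. Col11a1 encodes a chain of type XI collagen, which plays that part in cartilage, and Col24a1 and Col27a1 encode chains of types XXIV and XXVII, which are known best from developing bone and cartilage. Fibroblasts and myofibroblasts are the main source of these proteins in a scarring lung.

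Levels are the deposited values, log2 expression after robust multi-array average (RMA) normalization, so a difference of 1 is a 2-fold difference. Bleomycin and saline mice of a day were compared with limma, a linear model fitted to all 27871 probesets at once, and the words rose and fell are kept for probesets whose Benjamini-Hochberg adjusted p was under 0.05. Errors of differences are the standard errors of that fit. The study reduced its probesets to 1 value per gene by a variance filter, whose exact rule it does not give. Where 1 probeset stands for a gene here, it is the most variable across the arrays. That variance includes the difference between treatments, so this choice favours the probeset with the larger change, and the other probesets are given beside it.

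RefSeq promoter windows (GRCm38.p6) were given for 7 of the 9 genes. The 250 bases before the start site are printed for the 3 genes whose window ends at the first base of the gene, a chain each of types I, III and XXIV, of which Col24a1 had a larger response on day 14 than the others. Capitals mark matches, on either strand, to 6 motifs that may overlap. The TATA box was searched as TATAAA and the CCAAT box by its name. The GC box, which SP1 binds, was searched as GGGCGG. A SMAD-type element was searched as CAGACA. An AP-1-type element was searched as TGANTCA. A TEAD-type element was searched as GGAATG.
Col1a2 (chr6:4505368-4505617, + strand): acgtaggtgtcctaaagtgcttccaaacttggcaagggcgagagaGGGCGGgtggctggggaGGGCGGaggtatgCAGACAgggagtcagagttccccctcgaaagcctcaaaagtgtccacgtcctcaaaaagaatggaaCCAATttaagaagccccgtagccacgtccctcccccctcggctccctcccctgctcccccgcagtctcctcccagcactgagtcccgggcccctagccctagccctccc
Col3a1 (chr1:45311288-45311537, + strand): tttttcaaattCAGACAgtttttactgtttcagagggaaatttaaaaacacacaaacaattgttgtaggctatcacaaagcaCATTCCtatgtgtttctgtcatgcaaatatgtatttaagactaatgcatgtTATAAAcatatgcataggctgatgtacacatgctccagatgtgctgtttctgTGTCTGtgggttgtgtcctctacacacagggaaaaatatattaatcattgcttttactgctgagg
Col24a1 (chr3:145292222-145292471, + strand): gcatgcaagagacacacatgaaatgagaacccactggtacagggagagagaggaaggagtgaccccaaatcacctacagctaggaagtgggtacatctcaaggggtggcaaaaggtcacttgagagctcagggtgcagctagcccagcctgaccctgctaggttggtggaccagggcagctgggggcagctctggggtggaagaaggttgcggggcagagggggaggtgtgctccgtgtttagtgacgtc
The Col1a2 window held 1 CCAAT box, 2 GC boxes and 1 SMAD-type match. The Col3a1 window held 1 TATA box, whose first base lies 117 bases before the start site, with 2 SMAD-type matches and 1 TEAD-type match. The Col24a1 window held 0 matches to the 6 motifs. Among all 32851 promoter windows of the same length, 12.4% held the TATA box, 33.8% the CCAAT box, 32.7% the GC box, 17.1% the SMAD-type, 6.75% the AP-1-type and 12.6% the TEAD-type element. Of the other 4 windows, the GC box was found in those of Col5a1, Col5a3, Col11a1 and Col27a1, the CCAAT box in those of Col5a3 and Col11a1, and the SMAD-type element in that of Col5a1. These matches describe letters and no binding was measured.

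Of the defining genes of lung tissue, Sftpc and Sftpb, surfactant protein genes, lay between 14.31 and 14.53 and between 13.22 and 13.71 over all arrays, Scgb1a1, a club cell gene, between 14.46 and 14.69, Ager, of alveolar type 1 cells, between 13.82 and 14.21, and Foxj1, of ciliated cells, between 8.98 and 11.21. The median correlation of an array with its own group lay between 0.984 and 0.9959, lowest for replicate 4 of the bleomycin group of day 21 and next lowest, 0.9842, for replicate 3 of that of day 35. Both mice stand apart in the collagen values as well and are described with them.

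More chains had risen over saline on days 7 and 14 than on the other days. By the most variable probeset of each gene, 0 of the 9 chains had risen on day 1, 3 on day 2, 8 on day 7, 9 on day 14, 7 on day 21, 4 on day 28 and 6 on day 35, and 0 had fallen on any day. Among all 27871 probesets the share that rose was 15.4% on day 1, 13.9% on day 2, 25.1% on day 7, 21.8% on day 14, 20.6% on day 21, 11.5% on day 28 and 17.1% on day 35, and the share that fell was 15.2%, 13.5%, 23.6%, 19.6%, 19.2%, 11.0% and 12.3% on the same days. The median difference over the 9 chains was -0.02 on day 1, 0.25 on day 2, 0.99 on day 7, 1.13 on day 14, 0.56 on day 21, 0.37 on day 28 and 0.45 on day 35, while the median over all probesets stayed between -0.014 and 0.017. Increases of more than 2-fold that passed the test were seen for 4 chains on day 7 and 7 on day 14, where 2.13% and 1.85% of all probesets met both limits, for 2 on day 21 (0.786%), for 1 each on days 28 (0.409%) and 35 (0.474%), and for 0 on days 1 (0.276%) and 2 (0.689%). Counted over the 19 probesets, 16 rose on day 7 and 18 on day 14, against 6 on day 2 and 11 on day 21.

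**Figure D1:**
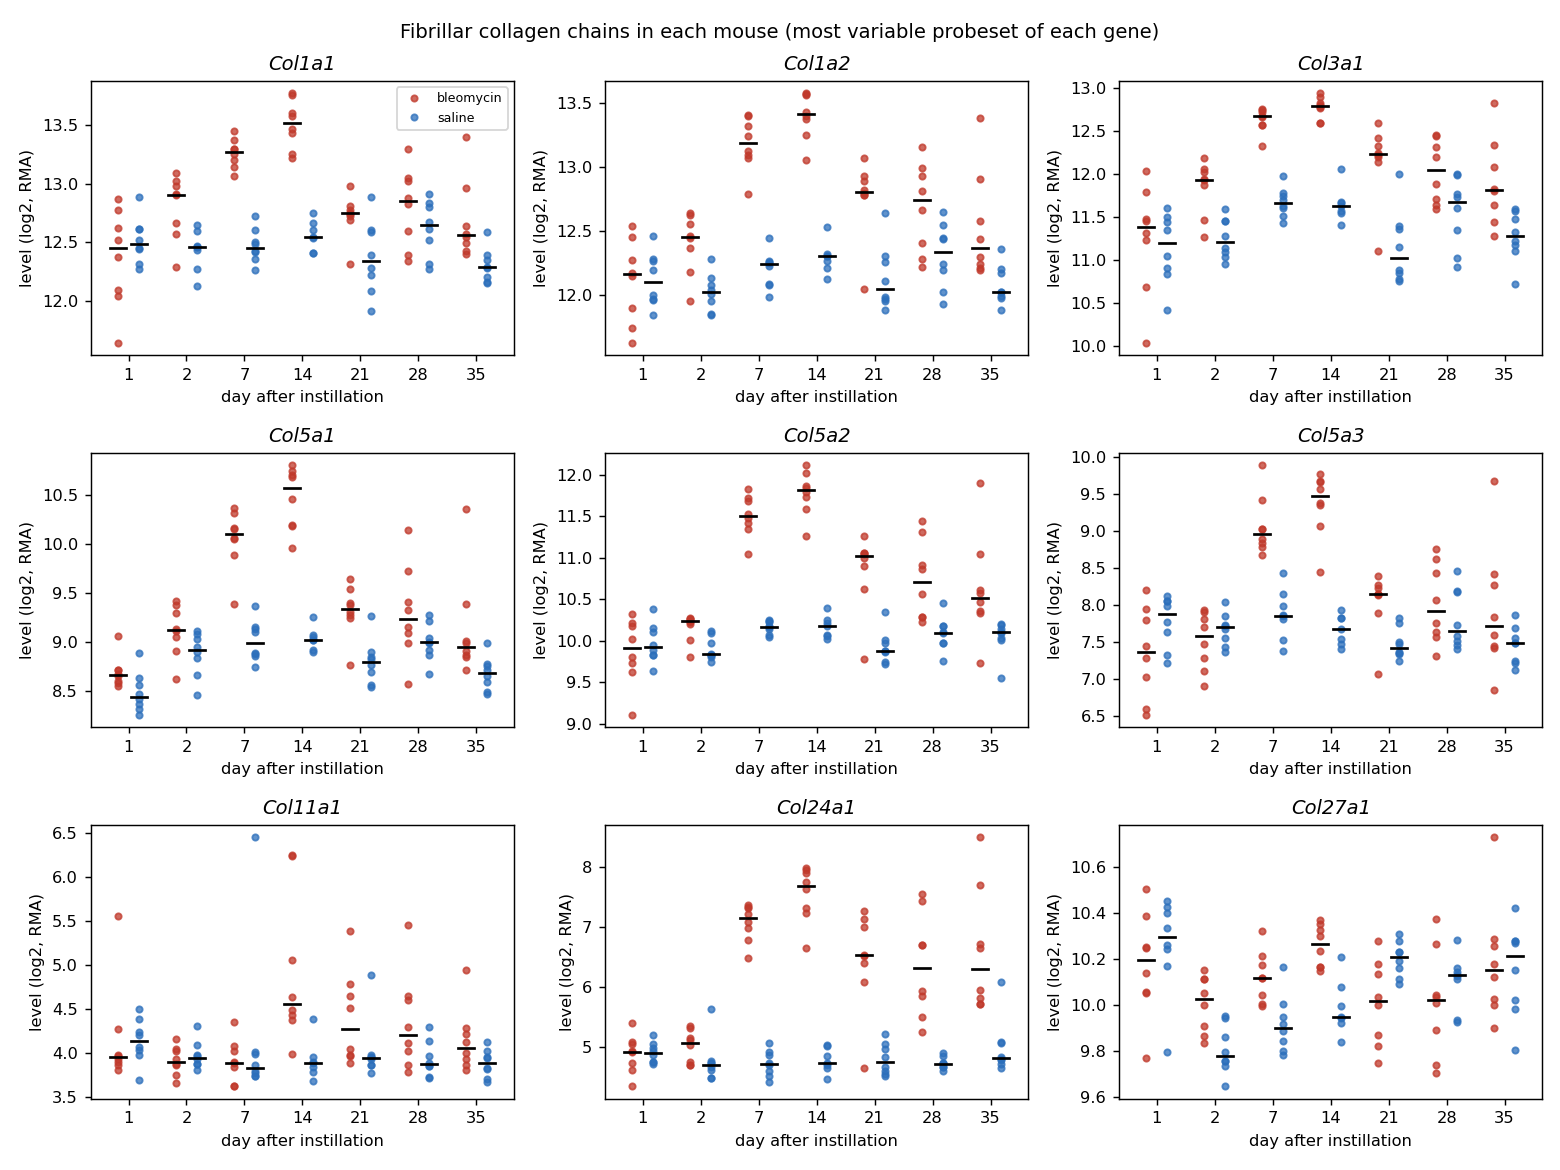
Level (log2, RMA) of the most variable probeset of each chain in each mouse, by day after instillation, with bleomycin mice (red) left of saline mice (blue) and black bars for group medians. On days 7 and 14 the points of the 2 groups separate without overlap for 7 of the 9 chains.

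On days 7 and 14 every bleomycin mouse lay above every saline mouse for Col1a1, Col1a2, Col3a1, Col5a1, Col5a2, Col5a3 and Col24a1. Such a complete separation upward held for 9.31% of all probesets on day 7 and for 9.30% on day 14. On day 28 it held for Col24a1 alone among the chains, against 2.01% of all probesets, and for 0 of the 9 on days 1, 2, 21 and 35, against 1.39%, 1.37%, 2.37% and 3.85% of all probesets.

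Col1a1, which encodes the chain that makes up most of type I collagen, had a lowest, median and highest level of 13.22, 13.52 and 13.77 in bleomycin mice on day 14, against 12.41, 12.55 and 12.75 in saline mice. The groups did not overlap. The difference was 0.95 ± 0.13 (1.93-fold, adjusted p = 1.2e-09), after 0.37 ± 0.12 on day 2 (adjusted p = 0.016) and 0.79 ± 0.12 on day 7 (adjusted p = 4.6e-08). On day 35 the bleomycin mice lay at 12.40, 12.56 and 13.40, against 12.15, 12.28 and 12.59 in saline mice, and 3 of the 8 bleomycin mice were above every saline mouse. The late differences were 0.35 ± 0.12 on day 21, 0.18 ± 0.12 on day 28, which did not pass, and 0.38 ± 0.12 on day 35. The day 21 difference was 0.286 (adjusted p = 0.0613) without replicate 1 of the saline group, and that of day 35 was 0.28 (adjusted p = 0.082) without replicate 3 of the bleomycin group.

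Col1a2, the partner chain of type I collagen, lay at 13.06, 13.42 and 13.58 in bleomycin mice on day 14, against 12.13, 12.31 and 12.53 in saline mice. Its difference of 1.11 ± 0.13 was 2.16-fold (adjusted p = 1.6e-11). It was already 0.38 ± 0.12 on day 2 and 0.99 ± 0.12 on day 7, and stayed at 0.63 ± 0.12 on day 21, 0.37 ± 0.12 on day 28 and 0.45 ± 0.12 on day 35, with an adjusted p of 0.021 on day 28. The call of day 28 was lost without any 1 of 4 mice, bleomycin replicates 5 and 8 and saline replicates 7 and 8, at differences between 0.31 and 0.33.

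Col3a1, the type III chain, was the member with the largest difference on day 2, 0.59 ± 0.18 (1.51-fold, adjusted p = 0.008). On that day bleomycin mice lay at 11.26, 11.93 and 12.18, against 10.95, 11.20 and 11.59 in saline mice, and 6 of the 8 were above every saline mouse. On day 14 they lay at 12.59, 12.79 and 12.93, against 11.41, 11.62 and 12.06, a difference of 1.13 ± 0.19. On day 21 the difference was 1.01 ± 0.18 (2.01-fold, adjusted p = 3.0e-06), with bleomycin mice at 11.10, 12.23 and 12.60 and saline mice at 10.76, 11.02 and 11.99. All but 1 of the bleomycin mice then lay above every saline mouse. The mouse that did not was replicate 4. The differences of days 28 and 35 were 0.48 ± 0.18 (adjusted p = 0.041) and 0.63 ± 0.18 (adjusted p = 0.0047), and the call of day 28 was lost without any 1 of 7 mice, at differences between 0.39 and 0.46.

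**Figure D2:**
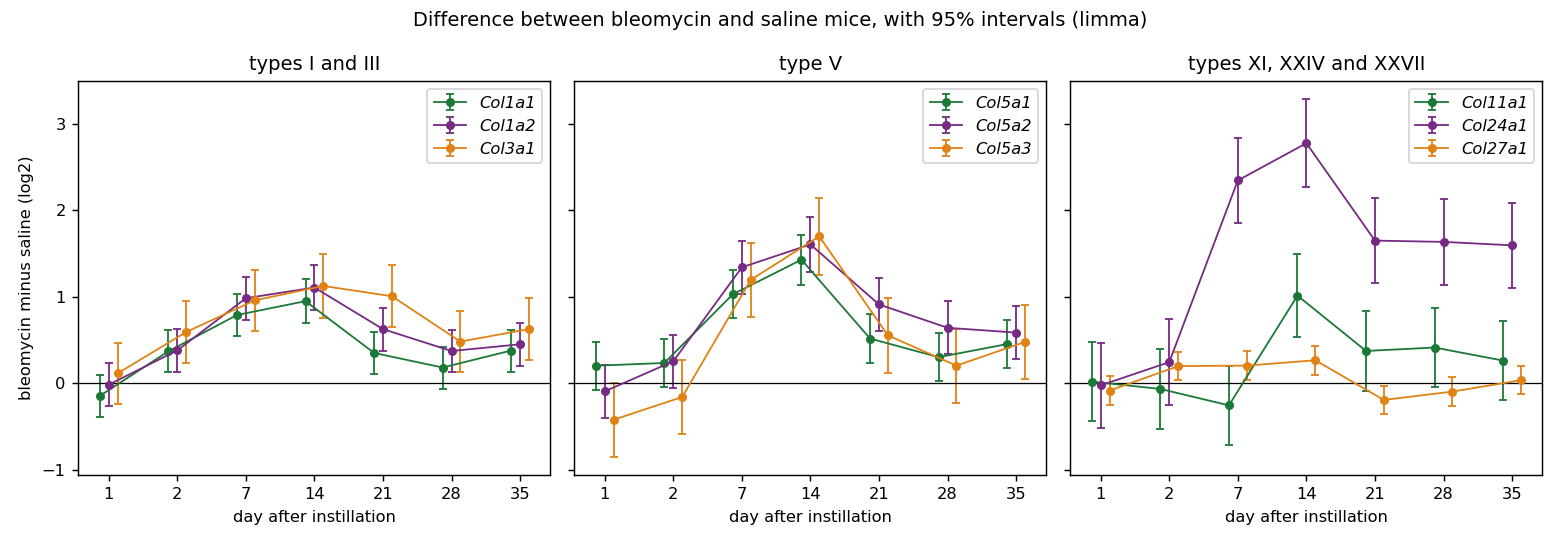
Difference between bleomycin and saline mice (log2) by day after instillation for the most variable probeset of each chain, with 95% intervals from limma, in 3 panels by collagen type. All chains but Col11a1 stand above 0 on day 7 and all 9 do on day 14, and Col24a1 stays near 1.6 from day 21 to day 35.

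By the most variable probeset of each gene, the type V chains had differences between 1.43 and 1.70 on day 14. Those of types I and III lay between 0.95 and 1.13. Most of the other probesets of these genes, given below, had smaller differences, and the other Col5a3 probeset did not rise. Col5a1, the chain that most type V molecules contain, lay at 9.96, 10.57 and 10.80 in bleomycin mice on day 14, against 8.91, 9.03 and 9.26 in saline mice, a difference of 1.43 ± 0.15 (2.69-fold, adjusted p = 1.5e-13). On day 2 its difference of 0.24 ± 0.14 did not pass (adjusted p = 0.22). On day 35 it was 0.45 ± 0.14 (adjusted p = 0.0092), and 0.28 (adjusted p = 0.10) without replicate 3 of the bleomycin group, which lay at 10.36 where the next mouse of its group lay at 9.39.

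Col5a2, the usual partner of Col5a1, lay at 11.26, 11.81 and 12.11 in bleomycin mice on day 14, against 10.03, 10.18 and 10.39 in saline mice. The difference was 1.61 ± 0.16 (3.05-fold, adjusted p = 9.5e-14), and it passed on every later day, at 0.91 ± 0.16, 0.64 ± 0.16 and 0.59 ± 0.16 on days 21, 28 and 35. The groups overlapped on these 3 days, though 7, 5 and 7 of the 8 bleomycin mice were above every saline mouse.

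Col5a3, a chain of a less common type V molecule, had the lowest difference of the 9 on day 1. On that day bleomycin mice lay at 6.51, 7.36 and 8.20, against 7.21, 7.88 and 8.12 in saline mice, a difference of -0.42 ± 0.22 that did not pass (adjusted p = 0.13). On day 14 they lay at 8.44, 9.47 and 9.77, against 7.41, 7.68 and 7.94, and had risen by 1.70 ± 0.22 (3.25-fold, adjusted p = 9.2e-10). The rise held on day 21 (0.56 ± 0.22, adjusted p = 0.033) and not on days 28 and 35 (0.20 ± 0.22 and 0.48 ± 0.22), and that of day 35 was 0.231 (adjusted p = 0.448) without replicate 3 of the bleomycin group. The call of day 21 was lost without any 1 of 7 mice, with differences between 0.51 and 0.54.

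Col24a1 gave the largest difference of the 9 chains on each day from day 7 on. Its only probeset had levels of 6.65, 7.24, 7.32, 7.63, 7.75, 7.90, 7.95 and 7.99 in the bleomycin mice of day 14, against 4.47, 4.65, 4.69, 4.73, 4.85, 5.01 and 5.03 in the saline mice. Even the lowest bleomycin mouse was well above the highest saline mouse. The difference was 2.35 ± 0.25 on day 7 (5.09-fold, adjusted p = 1.7e-13) and 2.78 ± 0.26 on day 14 (6.86-fold, adjusted p = 4.5e-15). It remained 1.65 ± 0.25 on day 21, 1.64 ± 0.25 on day 28 and 1.60 ± 0.25 on day 35, about 3-fold throughout, after 0.25 ± 0.25 on day 2. The values carry no detection call, and this probeset was among the dimmest 30%, so its saline level was not shown to be above background and its folds may understate the change, as may those of Col11a1.

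The late mice differed widely in Col24a1. On day 35 the 8 bleomycin mice lay at 5.71, 5.72, 5.81, 5.95, 6.65, 6.72, 7.71 and 8.51, against 4.64, 4.71, 4.78, 4.80, 4.83, 5.07, 5.09 and 6.08 in saline mice. The highest of them, replicate 3, was above every bleomycin mouse of day 14, whereas 4 of the 8 were below the highest saline mouse. On day 21 replicate 4 of the bleomycin group lay at 4.64, inside the saline range of 4.51 to 5.22, while the other 7 lay between 6.09 and 7.27.

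Col11a1 rose on day 14 alone, by 1.01 ± 0.24 (2.02-fold, adjusted p = 3.0e-04), with medians of 4.56 in bleomycin and 3.89 in saline mice. The bleomycin mice of day 14 had levels of 3.99, 4.37, 4.43, 4.49, 4.64, 5.06, 6.24 and 6.25, against 3.69, 3.78, 3.85, 3.89, 3.89, 3.95 and 4.39 in saline mice. Of the 8 bleomycin mice 6 were above every saline mouse, and 2 of them stood over 1 unit above the rest. The difference was not computed without both of these 2. Its second probeset gave 0.88 ± 0.17 (adjusted p = 1.7e-05). The difference on day 7 was -0.25 ± 0.23 (adjusted p = 0.38).

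That day 7 value rests on 1 saline mouse. Replicate 3 of the saline group of day 7 had a Col11a1 level of 6.45 where the other 7 lay between 3.74 and 4.02, and without it the difference was 0.07 (adjusted p = 0.80). The same mouse had the highest level of Acan, which encodes the cartilage proteoglycan aggrecan, of all mice, 10.07, against a median of 5.73 in its group. The next in Acan were replicate 3 of the bleomycin group of day 1 (9.15), replicate 7 of the saline group of day 21 (8.63) and replicate 2 of the bleomycin group of day 28 (8.07), and each of these 4 mice had the highest Col11a1 level of its group, 5.55 in the bleomycin mouse of day 1, 4.89 in the saline mouse of day 21 and 5.45 in the bleomycin mouse of day 28. In the bleomycin mice of day 14 Acan lay at 5.85, 6.22 and 6.61, against 5.40, 5.71 and 6.99 in saline mice. The mice with Col11a1 at 6.24 and 6.25 had Acan levels of 6.61 and 6.21. The same mice had the highest Sox9 levels of their group, 8.52 and 8.79, where the other 6 lay between 7.55 and 8.25. Sox9 encodes a transcription factor of cartilage and airway cells. Of the other cartilage markers, Hapln1 and Matn4 went the opposite way. In Hapln1 these mice were the lowest of the group, 7.61 and 7.88, where the other 6 lay between 8.01 and 8.93. In Matn4 they were the lowest too, 8.81 and 8.69, where the other 6 lay between 8.915 and 9.12. The rest did not set them apart in that direction. In Comp they lay at 6.86 and 7.14, in a group range of 6.78 to 7.14. In Matn3 they lay at 5.50 and 5.43 (range 5.07 to 6.02) and in Chad both at 9.07 (range 8.13 to 9.41). In Matn1 they lay at 4.95 and 4.81 (range 4.70 to 5.01).

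Of the 8 cartilage markers measured, 4 rose on day 14 (Hapln1, Sox9, Matn3 and Matn4), Chad fell, and Acan, Matn1 and Comp did not pass. Among all probesets 21.8% rose and 19.6% fell on that day. The summed level of the 8 lay at 10.77, 10.86 and 11.09 in the bleomycin mice of that day, against 10.56, 10.76 and 11.26 in saline mice. Without the 3 mice highest in Acan the day 14 difference of Col11a1 was unchanged at 1.01, since none of them is of that day, and that of day 21 became 0.50 (adjusted p = 0.025), against 0.37 ± 0.23 with all mice. The part of cartilage in the Col11a1 levels was not tested.

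**Figure D3:**
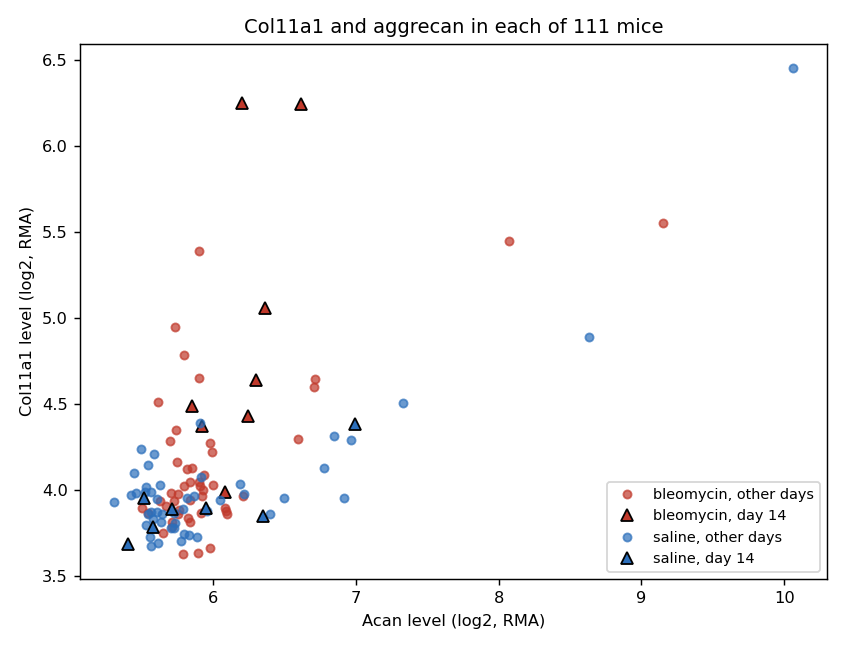
Col11a1 level against Acan (aggrecan) level, both log2 RMA, in each mouse, bleomycin in red and saline in blue, with triangles for day 14. The saline mouse at the upper right (day 7) is high in both genes, whereas the 2 bleomycin mice of day 14 at 6.24 and 6.25 in Col11a1 have Acan levels under 7. Other cartilage markers, such as Sox9, are not plotted.

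Col27a1 had the smallest difference of the 9 chains on day 14. It lay at 10.15, 10.27 and 10.37 in bleomycin mice on day 14, against 9.84, 9.95 and 10.21 in saline mice, so 5 of the 8 were above every saline mouse, and the difference was 0.27 ± 0.09 (adjusted p = 0.0081). On day 7 it was 0.21 ± 0.08 (adjusted p = 0.032), which subtraction of array medians brought to 0.17 (adjusted p = 0.078), and the call was lost without any 1 of 5 mice, at differences between 0.177 and 0.195. On day 21 the sign had turned, with bleomycin mice at 9.75, 10.02 and 10.28 and saline mice at 10.09, 10.21 and 10.31. That difference of -0.19 ± 0.08 did not pass by this probeset (adjusted p = 0.055), and its second probeset fell by 0.21 (adjusted p = 0.0195), the only fall among the 19 probesets on any day.

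The response itself was tested for change between periods. From days 1 and 2 to days 7 and 14 it grew for 7 of the 9 chains, where 20.0% of all probesets passed in that direction, by between 0.69 ± 0.18 for Col3a1 and 2.45 ± 0.25 for Col24a1. Col11a1 (0.40 ± 0.23) and Col27a1 (0.18 ± 0.08) did not pass. From days 7 and 14 to days 21, 28 and 35 it shrank for 7 chains, where 14.5% of all probesets passed, by 1.04 for Col5a3, 0.93 for Col24a1, 0.81 for Col5a1, 0.76 for Col5a2, 0.57 for Col1a1, 0.56 for Col1a2 and 0.32 for Col27a1. For Col3a1 the change was -0.34 ± 0.17 (adjusted p = 0.12), with a 95% interval of -0.67 to -0.01.

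Between day 7 and day 14 only Col11a1 passed among the 9, by 1.27 ± 0.33 (adjusted p = 0.046), where 0.298% of all probesets did, and this became 0.94 (adjusted p = 0.0695) without the 3 mice highest in Acan, of which the saline mouse of day 7 is one. The changes of the other 8 lay between 0.06 and 0.50. Between day 21 and day 35 0 of the 9 chains passed, with changes between -0.38 and 0.23, where 0.00718% of all probesets passed upward and 0.00359% downward. Between day 2 and day 7 the response grew for 5 chains (Col1a2, Col5a1, Col5a2, Col5a3 and Col24a1), where 11.4% of all probesets passed.

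Differences between chains were tested within mice. For each mouse the level of one chain was subtracted from that of another, and the mean of bleomycin mice minus that of saline mice was tested by an exact two-sided permutation test on each day, with p-values adjusted over 56 tests of 8 pairs on 7 days. Of these 31 passed, and 0.000155 is the smallest p the test can give. The probes of different genes can differ in how far their signal follows the RNA, and the probesets of 1 gene differed in the same test (next paragraphs), so these are differences of measured response.

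By the most variable probesets the type V chain Col5a1 rose further than Col1a1 by 0.48 ± 0.07 on day 14 (adjusted p = 0.0025, exact permutation test). In all 8 bleomycin mice the difference of the 2 chains was above that of every saline mouse. On day 28 the difference was 0.12 ± 0.09 and on day 35 0.075 ± 0.086, and neither passed. It had also passed on days 1, 7 and 21 (0.349 ± 0.123, 0.241 ± 0.093 and 0.166 ± 0.058) and, with the opposite sign, on day 2 (-0.135 ± 0.056). The day 1 difference rests on the most variable Col5a1 probeset, from which both others differed within mice on that day, by -0.369 ± 0.114 and -0.213 ± 0.059 (adjusted p = 0.02 and 0.00673, exact permutation test). On days 14 and 21 the first of these differed from it by -0.390 ± 0.076 and -0.358 ± 0.076, the second by 0.004 ± 0.030 and 0.019 ± 0.028. The second Col1a1 probeset differed from the first by -0.385 ± 0.068 and 0.069 ± 0.052. The order of Col5a1 and Col1a1 thus depends on the probesets, on day 21 also in direction. Within type V, by the most variable probesets, Col5a2 rose further than Col5a1 by 0.31 ± 0.08 on day 7, 0.18 ± 0.07 on day 14, 0.395 ± 0.098 on day 21 and 0.34 ± 0.08 on day 28. By the second Col5a2 probeset the order of day 14 turns, since it rose by 1.22 ± 0.15 where Col5a1 rose by 1.43 ± 0.15. Col5a3 stood below Col5a1, at -0.625 ± 0.215 on day 1 and -0.394 ± 0.121 on day 2 (adjusted p = 0.0272 and 0.00824, exact permutation test). The day 1 value uses the same Col5a1 probeset and was not tested with the others. The differences of Col5a3 from Col5a1 on the 5 later days, between -0.10 and 0.27, did not pass.

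Col24a1 exceeded Col5a1 by 1.32 ± 0.12 on day 7, 1.35 ± 0.12 on day 14, 1.13 ± 0.24 on day 21, 1.33 ± 0.21 on day 28 and 1.14 ± 0.29 on day 35, with adjusted p-values between 0.00145 and 0.00725 in the exact permutation test. Col27a1 fell short of Col5a1 on days 1, 7, 14, 21 and 28, most on day 14, at -1.16 ± 0.13. Its day 1 difference (-0.288 ± 0.113) depends on the Col5a1 probeset used. The other Col5a1 probesets differed from that one by -0.369 ± 0.114 and -0.213 ± 0.059 on day 1, and Col27a1 was not tested against them. Col11a1 fell short of it on day 7 (-1.29 ± 0.33), in all 8 bleomycin mice, and its differences on the other days did not pass. The size of that day 7 difference includes replicate 3 of the saline group, at 6.45 in Col11a1, and was not computed without it.

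By their most variable probesets the response of Col1a1 was smaller than that of Col1a2, with differences of -0.129 ± 0.052 on day 1, -0.195 ± 0.046 on day 7, -0.16 ± 0.06 on day 14, -0.275 ± 0.060 on day 21 and -0.19 ± 0.03 on day 28, all past the threshold. The direction depends on the probeset, since the other Col1a2 probesets had differences from saline of -0.14 and 0.14 on day 21, where both Col1a1 probesets had 0.35 and 0.42. Col3a1 exceeded Col1a1 most on day 21, by 0.66 ± 0.11 (adjusted p = 0.0032, exact permutation test), in 7 of 8 bleomycin mice. On day 14 that difference was 0.18 ± 0.10 (adjusted p = 0.13, exact permutation test). The day 21 difference rests on these probesets, since the second probesets of Col3a1 and Col1a1 rose by 0.43 ± 0.09 and 0.42 ± 0.09 on that day, a difference that was not tested within mice.

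**Figure D4:**
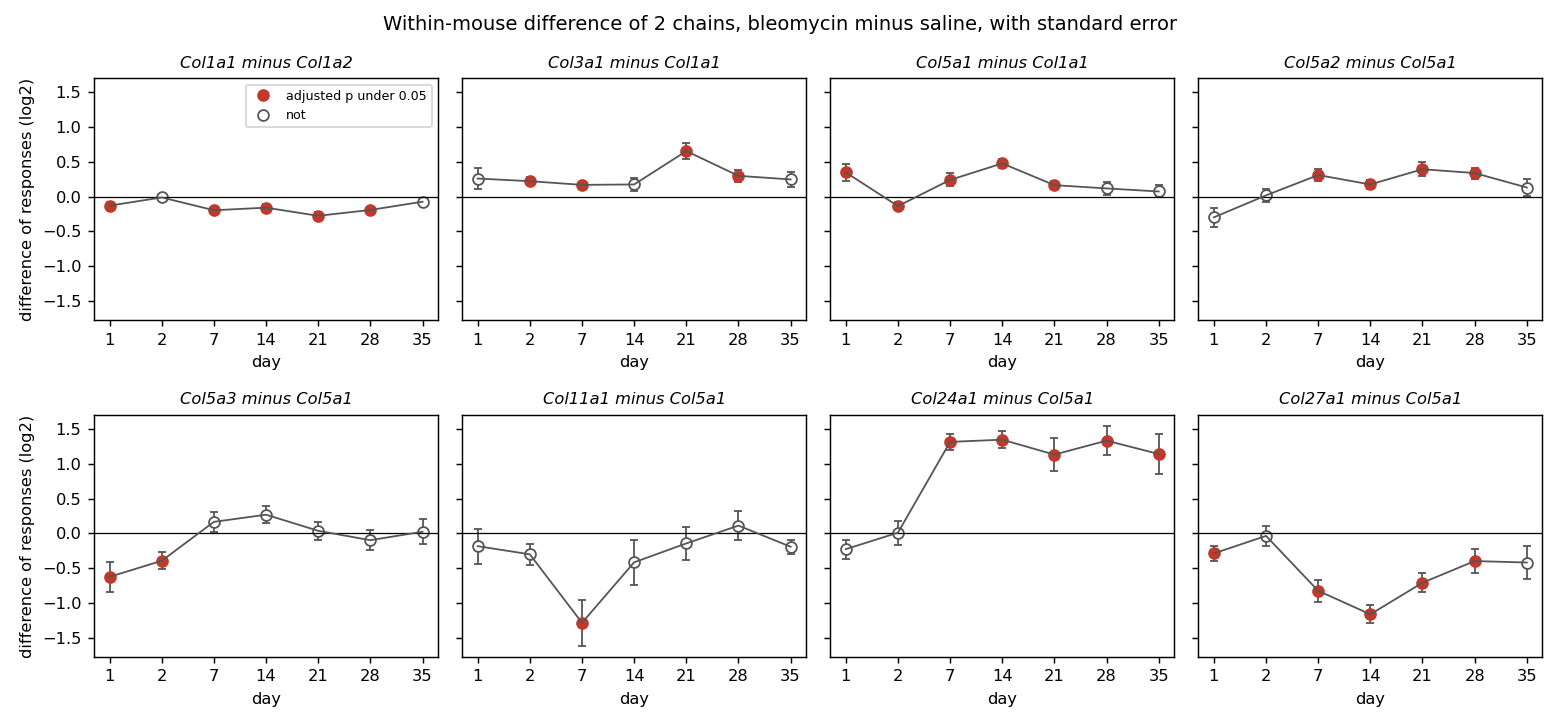
Difference of response between 2 chains of the same mouse (bleomycin minus saline, log2) by day, with standard errors, for 8 pairs, each by the most variable probeset. Filled points have an adjusted p under 0.05 in the exact permutation test, as for Col24a1 minus Col5a1 on all days from day 7 to day 35.

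The probesets of 1 gene did not give the same size of response. In the same test of each other probeset against the most variable one, 32 of 70 comparisons passed, 7 of 10 on day 14. For Col3a1 the second probeset rose by 0.43 ± 0.10 on day 14 where the most variable one rose by 1.13 ± 0.19, a within-mouse difference of -0.70 ± 0.07. The second Col1a1 probeset rose by 0.57 ± 0.09 where the first rose by 0.95 ± 0.13, and the other pair of Col1a2 probesets by 0.58 ± 0.07 and 0.66 ± 0.13 where the first rose by 1.11 ± 0.13. All of these rose on days 7 and 14.

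The late rise of Col1a2 was seen in full only by its most variable probeset. One of the others had differences of -0.14 ± 0.12, -0.10 ± 0.12 and -0.06 ± 0.12 on days 21, 28 and 35, and the one with the highest mean level 0.14 ± 0.07, 0.13 ± 0.07 and 0.18 ± 0.07, of which only that of day 35 passed (adjusted p = 0.036). The within-mouse differences of both from the most variable one passed on all 3 days. The second Col3a1 probeset did not pass on day 28 (0.14 ± 0.09). For Col5a1, the probeset with the highest mean level rose on day 14 by 1.43 ± 0.15 and differed from the most variable one by 0.004 ± 0.030 within mice, while the other rose by 1.04 ± 0.13 and did not pass on days 21, 28 and 35. The second Col5a2 probeset rose on day 2 already, by 0.54 ± 0.14 (adjusted p = 0.0027).

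The second Col5a3 probeset did not pass on any day, with differences between -0.09 and 0.06 and standard errors of 0.06. It was among the 30% of probesets with the lowest mean level, as were both of Col11a1 and that of Col24a1. It was the only 1 of the 19 probesets that did not rise on day 14.

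**Figure D5:**
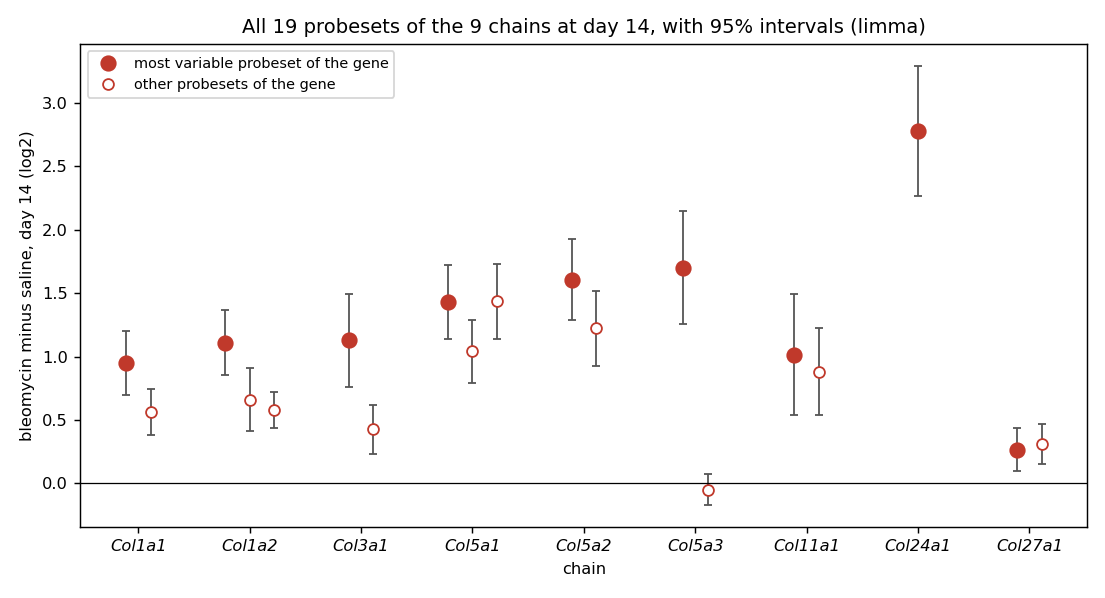
Difference between bleomycin and saline mice on day 14 (log2) with 95% intervals from limma for all 19 probesets, grouped by chain; filled points are the most variable probeset of a gene and open points the others. All but the second Col5a3 probeset, at -0.05, lie above 0.

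The standard deviation between mice was larger in bleomycin than in saline mice for 8 of the 9 chains on days 1, 2, 21 and 28, for 5 on day 7, 7 on day 14 and 9 on day 35. Its median over the 9 chains was 0.24 in bleomycin mice and 0.17 in saline mice on day 7, 0.26 in bleomycin mice and 0.13 in saline mice on day 14, 0.42 and 0.25 on day 21, 0.47 and 0.20 on day 28, and 0.50 and 0.20 on day 35, described here with no test. The chains shared their high and low mice. On day 35 replicate 3 of the bleomycin group was the highest of its group in 8 of the 9 chains, all but Col27a1. On day 21 replicate 4 was the lowest in 8, again all but Col27a1, and on day 14 replicate 8 was the lowest in 8, all but Col11a1. Without replicate 3 the number of chains risen on day 35 was 4, against 6 with it, and without replicate 4 that of day 21 was still 7.

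By the most variable probesets the saline level also moved between days for 3 chains in an F test over the 7 saline groups. These were Col3a1 (adjusted p = 0.013), Col5a1 (adjusted p = 0.0033) and Col27a1 (adjusted p = 7.0e-06), where 57.3% of all probesets passed. The second Col1a1 probeset passed the F test as well (adjusted p = 0.0068), and the other Col5a1 probesets did not (adjusted p = 0.253 and 0.0758). Between saline mice of day 35 and those of day 1, 0 of the 9 chains passed in limma at the adjusted threshold or at an unadjusted p under 0.05, where 13.2% of all probesets were higher and 18.3% lower. Counted over the 19 probesets, 1 was lower on day 35 at the adjusted threshold and 0 were higher. Day and any processing by day cannot be told apart. The saline medians of Col27a1 were 10.30 on day 1, 9.78 on day 2 and 10.21 on day 35. Set against all 55 saline mice in place of those of the day, the day 7 difference of Col27a1 was 0.06 and did not pass.

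Across the deviations of all arrays from their group means, the level of Col1a1 correlated most with that of Col1a2 among the other chains (Pearson r = 0.931, Spearman rho = 0.933), then with Col3a1 (r = 0.867) and Col5a1 (r = 0.805), and least with Col24a1 (r = 0.559), Col11a1 (r = 0.377) and Col27a1 (r = 0.247). The points share the array and the lung it came from. Outside the family the 5 genes most like Col1a1 were Loxl1, a crosslinking enzyme of elastin and collagen (r = 0.870, rho = 0.841), Igf1, a growth factor (r = 0.853, rho = 0.795), the basement membrane collagens Col18a1 (r = 0.847, rho = 0.816) and Col15a1 (r = 0.839, rho = 0.813), and Nrcam, a cell adhesion molecule (r = 0.821, rho = 0.825). Those most like Col5a1 were Fstl1 (r = 0.902, rho = 0.855), Eln, which encodes elastin (r = 0.868, rho = 0.835), Igf1 (r = 0.829, rho = 0.812), Nlgn2 (r = 0.800, rho = 0.714) and Ckap4 (r = 0.799, rho = 0.727). Without the 2 arrays farthest from the median the value for Col1a1 and Loxl1 was 0.850 and that for Col5a1 and Fstl1 0.873.

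Genes that act on fibrillar collagen were counted by their step in the pathway, and the lists were not tested against each other. On day 14, where 21.8% of all probesets rose and 19.6% fell, 4 of 6 measured genes of procollagen folding and secretion rose and 0 fell, led by P3h1, a prolyl 3-hydroxylase (0.60 ± 0.07), and Serpinh1, the collagen chaperone HSP47 (0.31 ± 0.08). On day 1, when 0 chains and 15.4% of all probesets had risen, 3 of these 6 genes had. So had 3 of the 10 genes of hydroxylation and crosslinking. Of those 10 genes 6 rose and 0 fell on day 14. The prolyl 4-hydroxylase subunit gene P4ha3 rose by 1.85 ± 0.19 and Lox, the lysyl oxidase, by 1.04 ± 0.14, whereas P4ha1 and P4ha2 were at -0.01 ± 0.14 and -0.10 ± 0.11. Of 6 genes of propeptide processing 0 rose and 1 fell, Pcolce2, an enhancer of procollagen C-proteinase, by 0.90 (adjusted p = 1.4e-07). Bmp1, the proteinase itself, was at 0.16 ± 0.12.

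At the fibril surface 7 of 10 genes rose on day 14 and 0 fell, where 21.8% of all probesets rose and 19.6% fell. The largest increases were those of Thbs2, a matricellular protein (2.31 ± 0.23), and Fn1, fibronectin (1.95 ± 0.18). Of the genes of collagen breakdown and uptake all 7 measured rose, led by the collagenase gene Mmp13 (1.78 ± 0.26) and by Ctsk, cathepsin K (1.62 ± 0.19). Among 7 collagen receptors 3 rose, with Lair1, an inhibitory receptor of leukocytes (1.06 ± 0.17), and Itgb1, the integrin β1 chain (0.35 ± 0.11), ahead, and Itga1, the integrin α1 chain, fell by 0.23 (adjusted p = 0.020).

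Markers of the cells that make collagen did not move as one. The marker counts below stand beside 21.8% of all probesets risen and 19.6% fallen on day 14. Of 7 fibroblast markers 2 rose on day 14 (Pdgfrb and Thy1) and 4 fell (Pdgfra, Tcf21, Pi16 and Npnt), and their summed level lay at 14.25, 14.35 and 14.42 in bleomycin mice, against 14.31, 14.38 and 14.42 in saline mice. Of 5 myofibroblast markers 2 rose, Cthrc1 by 1.60 and Lrrc15 by 1.19, while Acta2, smooth muscle actin, was at -0.20 (adjusted p = 0.63), and the summed level lay at 13.15, 13.35 and 13.69, against 13.07, 13.16 and 13.57. Of 4 bone markers Dmp1 and Ibsp rose, by 4.21 and 1.57, with a summed level of 9.25, 9.98 and 11.02 in bleomycin mice, against 8.34, 8.49 and 8.64 in saline mice. Cardiac muscle markers varied widely, between 10.44 and 13.99 in summed level in bleomycin mice of day 14 and between 11.48 and 14.85 in saline mice, and 2 of the 5 fell. Of the other markers 0 rose, and 3 of 5 of lung epithelium, 4 of 6 of endothelium, 3 of 5 of mesothelium and 2 of 3 of adipose tissue fell. The summed endothelial level lay between 14.28 and 14.54 in bleomycin mice, against 14.62 to 14.81 in saline mice, without overlap. The part of these cells in the chains' values was not tested.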

How the data were processed

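Whole-lung RNA of 56 bleomycin and 55 saline mice was measured on Affymetrix mouse whole-genome arrays, each with the amplified RNA of 1 mouse. The authors mapped the probes to the mouse genome (build not given in the sources used here), dropped probes without a unique mapping and deposited log2 values after RMA normalization. These lay between 2.746 and 14.69, with array medians from 8.61 to 8.73. The number of arrays limits the precision. Of 32688 probesets, 4503 with no named gene and 314 with several were left out.

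Groups were taken from the sample labels. One model held the mean level of all 14 groups (limma 3.58.1 under R 4.3.3, lmFit then eBayes, 97 residual degrees of freedom), p-values were adjusted by Benjamini and Hochberg over 27871 probesets in each contrast, and the script was tested on simulated data. Contrasts were bleomycin minus saline mice of a day, and differences of these between days. Within-mouse differences were tested by exact permutation in Python 3.11.15. Genes named from a list are those that changed most on day 14 among the genes past the threshold, up to 2 in each direction, all chains, the 5 genes most like Col1a1 and Col5a1, and others (P4ha1, P4ha2, Bmp1, markers) chosen after their values were seen. The members and lists were chosen with earlier results of these data known. Promoter windows were taken from RefSeq and matched by symbol. Alternatives were other probesets of a gene or their mean, 1 probeset per gene, a filter on the 30% dimmest probesets, quantile normalization, median subtraction, 1 fit per day, pooled saline mice, array weights, an unmoderated contrast, replicate number as a block and leaving out each mouse; leaving out saline mice, and the 3 mice highest in Acan, was chosen after seeing the data. Same-numbered mice correlated above 0.1 in 24 of 55 pairs, so the number was not taken as a pairing.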

Additional observations from a re-analysis of the deposited data

Results flagged for a closer look

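The 9 chains on 7 days under both treatments gave 126 sets of values. Of these, 21 had a mouse far from the others by Dixon's criterion, where about 6.3 are expected by chance at 1 in 20. The chains were read in the same mice, so the sets are not independent and 1 mouse can be flagged in several. Replicate 4 of the bleomycin group of day 21 was the lowest in Col1a1 (12.31), Col1a2 (12.04), Col3a1 (11.10), Col5a1 (8.77), Col5a2 (9.78), Col5a3 (7.06) and Col24a1 (4.64). Replicate 3 of the bleomycin group of day 35 was the highest in Col5a1 (10.36) and Col11a1 (4.94). Col11a1 also had a single high mouse in the bleomycin group of day 1 (5.55) and in the saline groups of day 7 (6.45), day 14 (4.38) and day 21 (4.89). The remaining single mice were a high Col5a1 on day 1 (9.06), a low Col3a1 on day 7 (12.33) and a high Col27a1 on day 35 (10.73) in bleomycin groups, and in saline groups a high Col3a1 on day 14 (12.06), a low Col5a2 on day 35 (9.55), a high Col24a1 on days 2 (5.63) and 35 (6.08) and a low Col27a1 on day 1 (9.80).

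The response to bleomycin differed between periods by a limma contrast in 20 cases. From days 1 and 2 to days 7 and 14 it grew by 0.76 for Col1a1, 0.86 for Col1a2, 0.69 for Col3a1, 1.01 for Col5a1, 1.39 for Col5a2, 1.74 for Col5a3 and 2.45 for Col24a1. From days 7 and 14 to days 21, 28 and 35 it changed by -0.57 for Col1a1, -0.56 for Col1a2, -0.81 for Col5a1, -0.76 for Col5a2, -1.04 for Col5a3, -0.93 for Col24a1 and -0.32 for Col27a1. From day 2 to day 7 it grew by 0.60 for Col1a2, 0.80 for Col5a1, 1.09 for Col5a2, 1.36 for Col5a3 and 2.10 for Col24a1, and from day 7 to day 14 by 1.27 for Col11a1.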

How the results depend on the processing

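The counts of chains risen on days 1, 7, 14, 21 and 35 stayed within 1.5 times their value under all alternatives, those that left out a mouse included. The counts of differences between chains and between probesets were recomputed only with quantile normalization, where they stayed within the same limit. Median subtraction cannot change a within-mouse difference, and the other alternatives were not run for these tests. The number risen on day 2, 3 by the reported fit, was 5 with 1 fit per day and with the mean of the probesets. The number risen on day 28, 4, was 2 with 1 fit per day, with the probeset of the highest mean level and with the mean of the probesets. The number fallen on day 21, 0, was 1 (Col27a1) with 1 fit per day, subtracted array medians, the mean of the probesets, quantile normalization and without the 30% dimmest probesets. The growth of the Col11a1 response from day 7 to day 14 was lost, leaving 0 chains, without moderation of the variance, without the 3 mice highest in Acan, and without the 30% dimmest probesets, a filter that also removes Col24a1 and both Col11a1 probesets. In saline mice 1 chain was lower on day 35 than on day 1 with the mean of the probesets, against 0.

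Leaving out 1 mouse, bleomycin or saline, gave 0 chains risen on day 1, 3 to 4 on day 2, 7 to 8 on day 7, 9 on day 14, 5 to 7 on day 21, 2 to 5 on day 28 and 4 to 7 on day 35, and 0 to 1 fallen on day 21. With the replicate number as a replicate block 7 chains had risen on day 35, against 6, since Col5a3 passed (0.48, adjusted p = 0.048), and no other call changed; same-numbered mice shared only a number.

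Signs turned only for differences that had not passed. On day 1 Col11a1 was at -0.003 by its other probeset and at -0.18 without the mice highest in Acan, Col1a1 at 0.018 by its other probeset, Col1a2 at 0.018 with array weights and 0.052 with the mean of its probesets, and Col3a1 and Col5a1 at -0.060 and -0.009 by the probesets of highest mean level. Against all saline mice, on day 1, Col24a1 was at 0.068, Col27a1 at 0.11, Col3a1 at -0.13 and Col5a1 at -0.14, and on day 2 Col27a1 was at -0.057. Col11a1 was at 0.034 on day 2 by its other probeset and at 0.072 on day 7 without the mice highest in Acan, and its change from days 7 and 14 to the later days was 0.001 with quantile normalization. Col27a1 was at -0.051 on day 35 with array weights, and the change of Col5a2 from day 7 to day 14 was -0.081 by its other probeset. Without 1 mouse signs turned for Col11a1 on day 1 (-0.18 to -0.002) and day 7 (over all such fits -0.316 to 0.072), Col1a2 on day 1 (-0.077 to 0.053), Col24a1 on day 1 (-0.097 to 0.054), Col5a2 on day 1 (-0.156 to 0.017) and Col27a1 on day 35 (-0.041 to 0.077). The cause was not tested.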
